A study of Mus musculus with 6 samples.

Results

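Nucleolar factors of ribosome biogenesis were followed as a group of 10 genes, Dkc1, Ncl, Npm1, Fbl, Nop56, Nop58, Nhp2, Gar1, Bop1 and Wdr12, on arrays of B cell progenitors from old and young mice. Members were taken as every probe set (the group of probes that reports 1 transcript) paired with 1 of these genes alone in the platform's annotation. That gave 12 probe sets for the 10 genes, of 23410 probe sets paired with any gene and 19938 genes measured by themselves. Fbl and Wdr12 have 2 probe sets each, called brighter and dimmer here by their mean over all arrays, and the other 8 genes have 1.

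The cells were sorted bone marrow B cell progenitors of the BALB/c inbred strain, with the pro-B and pre-B stages combined in each sample and no treatment before RNA was taken. The old group was 3 arrays from mice 24 months of age and the young group 3 arrays from mice 2 months of age, each starting from 100 ng of RNA. No genetic change is labelled in either group. The labels do not say if the RNA of an array came from 1 animal or several, so a p-value here measures the spread between these arrays only. In such bulk samples fewer cells of a stage cannot be told apart from less RNA per cell. The comparison asks how transcript levels in these progenitors differ with age.

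Ribosomes are assembled in the nucleolus, where RNA polymerase I copies the ribosomal RNA precursor and small nucleolar RNAs (snoRNAs) guide its chemical modification. Box C/D snoRNAs work in a particle with the methyltransferase Fbl and the scaffold proteins Nop56 and Nop58. Box H/ACA snoRNAs work in a particle with the pseudouridine synthase Dkc1 and with Nhp2, Gar1 and Nop10, and the same proteins bind the RNA of telomerase. Ncl and Npm1 are abundant nucleolar RNA-binding and chaperone proteins, and Bop1 and Wdr12 form the PeBoW complex with Pes1 in making the large subunit. Growing cells such as dividing B cell progenitors need many ribosomes, and Myc is a known activator of these genes.

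The RefSeq promoter table (GRCm38.p6) holds a window from 250 bases before to 50 bases after the start of 7 of the 10 genes. In 9 such windows, Wdr12 having 3 starts, the E-box CACGTG, which Myc can bind and which reads the same on both strands, was absent, while 7.15% of all 32851 windows hold it. The GC box GGGCGG, searched on both strands, was in 5 of the 9 windows, from 5 of 7 genes, and in 35.7% of all windows. The ETS-type letters CCGGAAG, also on both strands, were in 2 of the 9 windows, those of Gar1 and Nhp2, and in 8.86% of all windows. None of these matches overlapped another. The windows printed here are those of the 2 genes with the largest and the 2 with the smallest differences on old replicate 3 (described further on) among genes with a window. Capitals mark 1 GC box in Nop58, 3 GC boxes in Ncl and the ETS-type letters in Gar1. Those in Ncl and Gar1 are on the other strand and so read CCGCCC and CTTCCGG. The windows lie at chrX:75095604-75095903 (plus strand), chr1:59684756-59685055 (plus), chr3:129831347-129831646 (minus) and chr1:86359406-86359705 (minus), each written 5′ to 3′ along the gene.
Dkc1: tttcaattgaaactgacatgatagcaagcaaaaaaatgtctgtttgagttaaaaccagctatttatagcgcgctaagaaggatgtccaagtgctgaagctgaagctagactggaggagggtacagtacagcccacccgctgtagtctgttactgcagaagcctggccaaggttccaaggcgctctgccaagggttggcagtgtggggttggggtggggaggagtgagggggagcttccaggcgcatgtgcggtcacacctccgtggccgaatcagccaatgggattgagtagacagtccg
Nop58: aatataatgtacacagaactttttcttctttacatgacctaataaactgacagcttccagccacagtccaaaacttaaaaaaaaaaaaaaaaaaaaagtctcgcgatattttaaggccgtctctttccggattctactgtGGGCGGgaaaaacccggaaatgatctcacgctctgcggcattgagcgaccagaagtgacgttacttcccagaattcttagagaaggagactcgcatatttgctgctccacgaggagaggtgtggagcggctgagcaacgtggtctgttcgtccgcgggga
Gar1: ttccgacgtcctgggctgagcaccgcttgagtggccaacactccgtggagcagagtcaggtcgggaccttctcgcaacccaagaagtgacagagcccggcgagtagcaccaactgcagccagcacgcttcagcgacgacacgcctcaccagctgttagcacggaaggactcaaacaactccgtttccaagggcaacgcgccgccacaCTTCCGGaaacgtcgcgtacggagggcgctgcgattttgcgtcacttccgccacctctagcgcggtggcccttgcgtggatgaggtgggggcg
Ncl: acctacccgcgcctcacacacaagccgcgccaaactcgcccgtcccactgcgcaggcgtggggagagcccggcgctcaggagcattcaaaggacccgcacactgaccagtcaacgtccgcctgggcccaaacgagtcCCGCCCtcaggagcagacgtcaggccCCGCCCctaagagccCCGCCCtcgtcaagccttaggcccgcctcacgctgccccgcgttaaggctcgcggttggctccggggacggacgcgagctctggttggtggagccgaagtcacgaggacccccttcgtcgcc
The Dkc1 window held none of the searched letters, and such a match or its absence is a description of these letters only. Base content differed between them, with 53% G and C in Dkc1, 45.3% in Nop58, 63% in Gar1 and 69.3% in Ncl, against a median of 52.7% over all windows.

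Old replicates 1 and 2 stood apart from the other 4 arrays over the whole table. Their correlation with the young arrays over probe sets, which are not independent of each other, was 0.607 to 0.702, and that of old replicate 3 was 0.978 to 0.985. As a level of background on each array, the 95th percentile was taken over 1205 probe sets of odorant and pheromone receptors, genes of sensory neurons. On the log2 scale this receptor level was 6.28, 6.19 and 5.02 for old replicates 1, 2 and 3, in that order, and 4.57 to 4.73 for the young arrays. The share of probe sets above it was 14.9%, 17.4% and 49.2% on old replicates 1, 2 and 3 and 53.1% to 56.4% on the young arrays. The labelled cell type was checked with 13 measured B cell progenitor markers, of which 13 lay above that level on each young array and on old replicate 3. Old replicate 1 had 5 of the 13 above it and old replicate 2 had 8, so most of the defining markers were not detected above background on the former. Results are therefore given for all 3 old arrays and with old replicate 3 apart from the other old arrays.

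The box C/D proteins were lower on all 3 old arrays by their brighter probe sets, before the quantile normalization that turned Nop56 and Fbl. Nop58, a scaffold of the particle, was at 4.64, 4.69 and 7.16 (log2 intensity) on old replicates 1 to 3 and at 7.94, 7.997 and 8.34 on young replicates 1 to 3. All old values lay below all young ones, and those of old replicates 1 and 2 were also below the receptor level, so that their distance from the young mean is at least 1.81 and 1.90. The Nop58 difference, old minus young, was -2.59 ± 0.67 (SE), with an adjusted p of 0.101 by limma.

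Nop56, the other scaffold, was at 7.59, 7.38 and 7.86 on the old and 8.34, 8.37 and 8.48 on the young arrays. Its groups did not overlap, all 6 values were above the receptor level, and the young arrays differed among themselves by 0.14 in all. The Nop56 difference was -0.79 ± 0.22 (SE), with an adjusted p of 0.101 by limma, and it turned to 0.65 when arrays were quantile normalized. Fbl, which carries the methyl transfer, was at 7.69, 7.40 and 8.34 on the old and 9.18, 8.90 and 9.34 on the young arrays by its brighter probe set. These groups did not overlap either, and the difference was -1.33 ± 0.30 (SE), with an adjusted p of 0.101 by limma, turning to 0.19 after quantile normalization.

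The dimmer Fbl probe set gave another picture. It was at 4.86, 5.26 and 5.05 on the old and 5.09, 4.65 and 5.22 on the young arrays, so the groups overlapped and the difference was 0.07 ± 0.25 (SE). This probe set was above the receptor level on 3 of 6 arrays, against 6 of 6 for the brighter. The annotation pairs both with Fbl and does not say which stretch or copy of the gene each reads, and RefSeq lists a pseudogene, Fbl-ps2, and the related gene Fbll1, so the values given for Fbl are uncertain to that degree.

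Among the box H/ACA proteins the values of Dkc1 and Nhp2 fell apart by age group while those of Gar1 overlapped. Dkc1, the pseudouridine synthase, was at 3.41, 3.51 and 6.28 on the old and 7.16, 7.24 and 7.61 on the young arrays. On old replicates 1 and 2 it was below the receptor level, at least 1.05 and 1.15 lower than the young mean, and old replicate 3 lay 2.08-fold below that mean. The Dkc1 difference was -2.94 ± 0.75 (SE), with an adjusted p of 0.101 by limma.

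Nhp2, an RNA-binding protein of the same particle, was at 5.41, 5.53 and 7.21 on the old and 7.84, 7.54 and 7.97 on the young arrays. All old values were the lower ones, the first 2 within the receptor level, and the difference was -1.73 ± 0.49 (SE), with an adjusted p of 0.101 by limma. Gar1, which helps release the modified RNA, was at 6.43, 6.74 and 6.71 on the old and 6.67, 6.64 and 7.06 on the young arrays. Its values overlapped and were above the receptor level on all 6 arrays. The Gar1 difference was -0.16 ± 0.23 (SE), with an adjusted p of 0.54 by limma, and it turned to 0.78 after quantile normalization.

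Ncl and Npm1 differed widely among the old arrays. Ncl, which binds the ribosomal RNA precursor, was at 4.96, 7.11 and 9.92 on the old and 9.98, 9.85 and 10.12 on the young arrays. Old replicate 3 lay within the young range, and old replicates 1 and 2 lay below it, the first within the receptor level and so at least 3.70 below the young mean. The group averages of Ncl were 7.33 ± 2.49 (SD, n = 3) and 9.99 ± 0.14 (SD, n = 3), and the difference had an adjusted p of 0.107 by limma.

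Npm1, a histone and ribosome chaperone, was at 7.97, 8.85 and 10.37 on the old and 10.75, 10.54 and 10.70 on the young arrays by its own probe set. The groups did not overlap, all values were above the receptor level, and the difference was -1.60 ± 0.57 (SE), with an adjusted p of 0.101 by limma. A further 3 probe sets, no members here, are paired with Npm1 and the gene model Gm15484 together. On each of them old replicate 3 was above all young arrays, at 10.63, 10.99 and 10.97 against highest young values of 10.45, 10.90 and 10.75, while old replicates 1 and 2 were lower, from 7.54 to 8.97. The side of the young range on which old replicate 3 lay thus differed between the probe sets that name Npm1.

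The PeBoW subunits differed from each other in their pattern. Bop1, which joins the large subunit precursor, was at 5.85, 5.14 and 4.99 on the old and 5.25, 5.13 and 5.43 on the young arrays. It was above the receptor level on the young arrays only, and its groups overlapped. Its difference was 0.05 ± 0.28 (SE), with an adjusted p of 0.872 by limma, and it turned to -0.20 after centring each array on its median. With every old value within the receptor level, these differences are not sizes of a change.

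Wdr12, which binds Bop1 in the complex, was at 6.95, 6.13 and 6.49 on the old and 7.02, 6.91 and 7.34 on the young arrays by the brighter probe set. By the dimmer it was at 5.48, 6.44 and 6.65 on the old and 7.16, 7.06 and 7.54 on the young arrays. The groups of Wdr12 overlapped on the brighter probe set, through old replicate 1 alone, and not on the dimmer. The differences were -0.57 ± 0.28 and -1.06 ± 0.35 (SE), with adjusted p of 0.134 and 0.101 by limma, and the first turned to 0.42 after quantile normalization. The annotation does not say which stretch or copy of Wdr12 each probe set reads, so the values of the gene, taken from the brighter in every median here, are uncertain to that degree. Pes1, the third subunit and no member, was at 5.77, 6.38 and 7.17 on the old and 6.62, 6.76 and 7.04 on the young arrays, so that old replicate 3 was the highest of all 6.

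**Figure D1:**
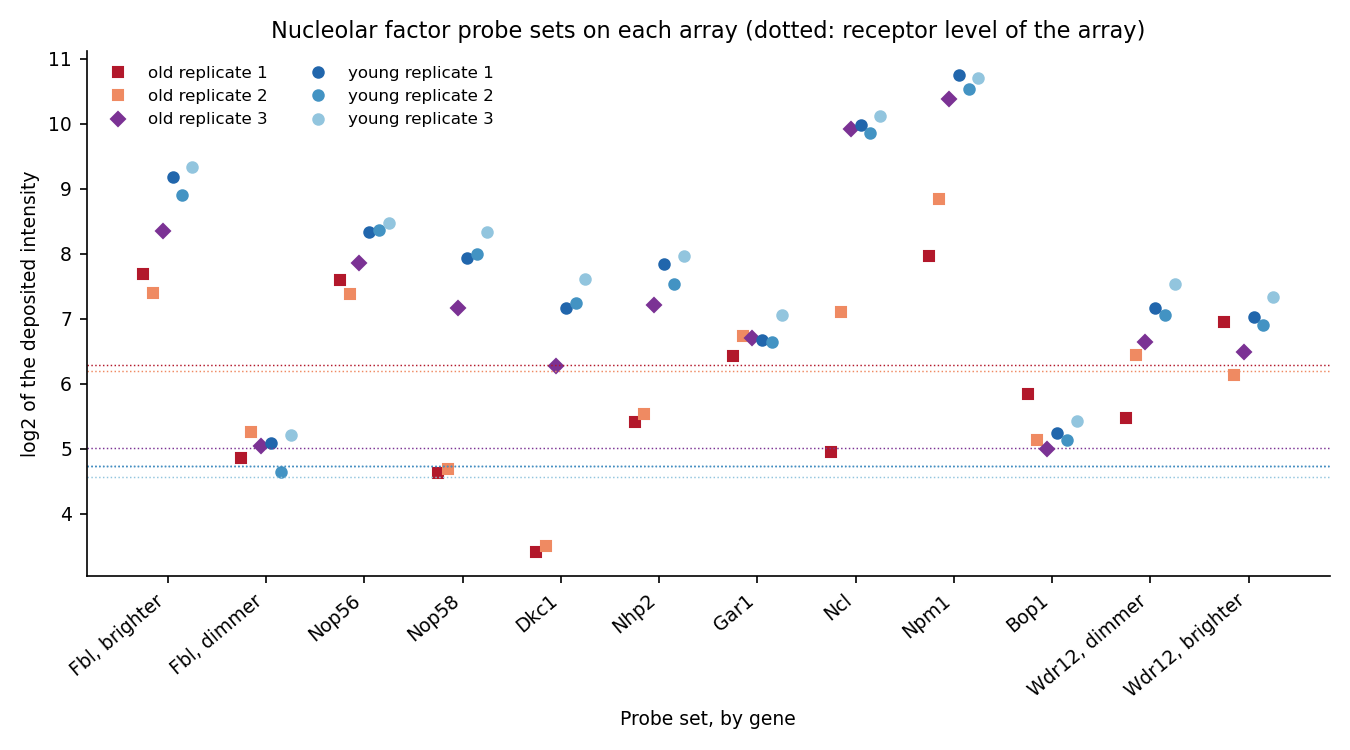
Log2 of the deposited intensity of the 12 probe sets on each of the 6 arrays, squares for old replicates 1 and 2, diamonds for old replicate 3, circles for the young arrays, dotted lines for the receptor level of each array. Dkc1 and Nop58 lie far below their young values on old replicates 1 and 2, and Ncl on old replicate 3 lies at 9.92, within the young range. Levels of different probe sets are not comparable with each other.

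Over all 3 old and 3 young arrays 0 of the 12 member probe sets passed an adjusted p of 0.05 with limma, and 0% of the 23410 probe sets tested did. With limma an unadjusted p under 0.05 was reached by 7 of the 12 and by 46.8% of all. The groups did not overlap, with the old lower, at 7 of 12 member probe sets and at 22.9% of all, and with the old higher at 0 of 12 and at 36.1% of all. By their brighter probe sets, 5 of the 10 genes were above the receptor level on each of old replicates 1 and 2. Of all genes 12.7% and 14.6% were. The sizes of the other members' differences are therefore not measured on those arrays. The median difference over the 10 genes, each by its brighter probe set, was -1.46, beside 0.37 over all genes. Relative to all genes the members thus lay at -1.83, and after quantile normalization, which left 5 of the 10 genes with a lower old mean in place of 9, at -0.14. Of all 19938 genes 7322 had a lower old mean before quantile normalization and 8518 after it. Centring arrays on their medians moved the median over all probe sets from 0.35 to 0.10, a shift common to all genes.

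The distance rested mostly on old replicates 1 and 2. On old replicates 1, 2 and 3 the median member was -1.91, -1.77 and -0.55 from the young mean, beside 0.51, 0.46 and 0.04 over all genes. These arrays had 9 and 9 of the 12 member probe sets below all young arrays, as were 35.1% and 35% of all, and 7 and 7 more than 1 log2 unit below the young mean, as were 24.5% and 23.2%. Bright probe sets as a whole were lower there. The 9641 probe sets whose young mean was within the range of the members had medians of -1.19, -1.09 and -0.20 on old replicates 1, 2 and 3. Of these probe sets 54.7% on old replicate 1 and 52.5% on old replicate 2 were more than 1 log2 unit below the young mean. The member counts at that step were thus near the share of equally bright probe sets. With old replicates 1 and 2 alone against the young arrays 8 of 12 member probe sets were called lower with limma, as were 30.2% of all, while 0 of 12 and 52.2% of all were called higher, 82.4% in either direction. The signal of these arrays moved with the members' values, and its part in the result was not tested.

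**Figure D2:**
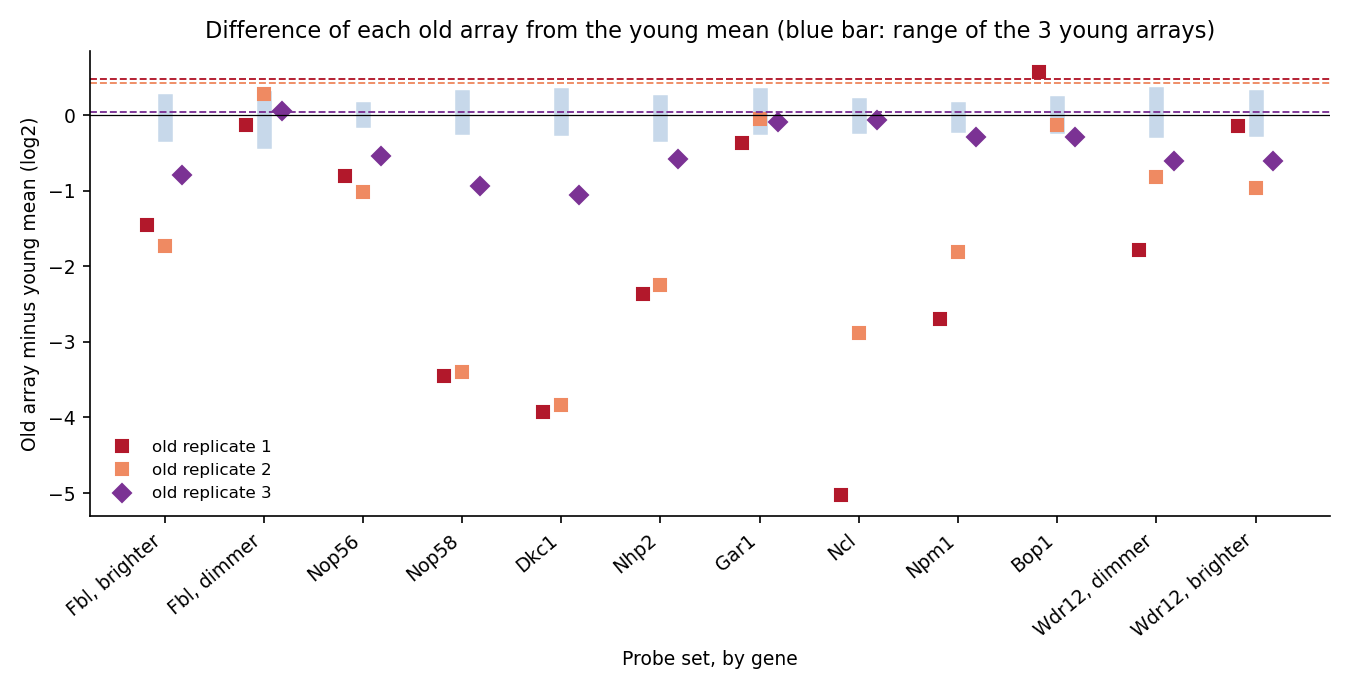
Difference of each old array from the mean of the 3 young arrays, in log2 units, for the 12 probe sets. Blue bars span the 3 young arrays and dashed lines give the median of all probe sets on the same old array; on old replicate 3, 9 of 12 lie below the bars, while Gar1, Ncl and the dimmer Fbl probe set lie inside them.

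Part of the group was lower on old replicate 3 too, the old array closest to the young ones over the whole table. Dkc1 fell by 1.06 ± 0.19 (SE) on the log2 scale, Nop58 by 0.93 ± 0.18 and Fbl, by its brighter probe set, by 0.79 ± 0.18 against the 3 young arrays. Their adjusted p-values by limma were 0.0249, 0.0295 and 0.0456. These 3 of 12 member probe sets were called lower, beside 5.24% of all probe sets and 11.8% of the 9641 with a young mean within the range of the members, and 0 of 12 were called higher, beside 1.76%. In either direction 7% of all were called, and an unadjusted p under 0.05 was reached by 7 of 12 and by 27.5% of all. The comparison has 1 old array, which is assumed to vary as the young arrays do, so it compares that array with the young group and not the ages.

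The other members did not pass. Nop56 was -0.54 ± 0.13 (SE) from the young mean (adjusted p = 0.0525 by limma), Nhp2 -0.57 ± 0.18 (0.0931) and Wdr12 -0.60 ± 0.18 by the brighter and -0.61 ± 0.19 by the dimmer probe set. Ncl at -0.07 ± 0.15 and Gar1 at -0.08 ± 0.19 had the smallest distances of the 10 genes, and Npm1 stood at -0.29 ± 0.14. Bop1, within the receptor level on that array, was -0.28 ± 0.15 from the young mean. In the box H/ACA particle Dkc1 was therefore past the threshold and Nhp2 and Gar1 were not, but differences between members were not tested. Old replicate 3 was below all 3 young arrays at 9 of 12 member probe sets and at 31.8% of all, and more than 1 log2 unit below the young mean at 1 of 12, Dkc1, and at 1.12% of all.

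The count on old replicate 3 depended on the young arrays. Without young replicate 1 it fell from 3 to 0, without young replicate 2 it was 3 and without young replicate 3 it was 7. Young replicate 3 had the highest young value at 11 of 12 member probe sets, as it did at 36.5% of all. With quantile normalization or a pseudocount of 16 the count was 1. The member called was Dkc1 with quantile normalization and Nop56 with the pseudocount. Dkc1, Nop58 and Fbl did not pass with the pseudocount. In the 8 alternatives Dkc1 ranged from -1.16 to -0.81, Nop58 from -1.03 to -0.62 and the brighter Fbl probe set from -0.92 to -0.56, none of them turning sign. Their highest adjusted p-values over these settings were 0.065, 0.0683 and 0.119 by limma. Ncl and Gar1 turned sign with quantile normalization and without young replicate 3, and the dimmer Fbl probe set in 3 alternatives.

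**Figure D3:**
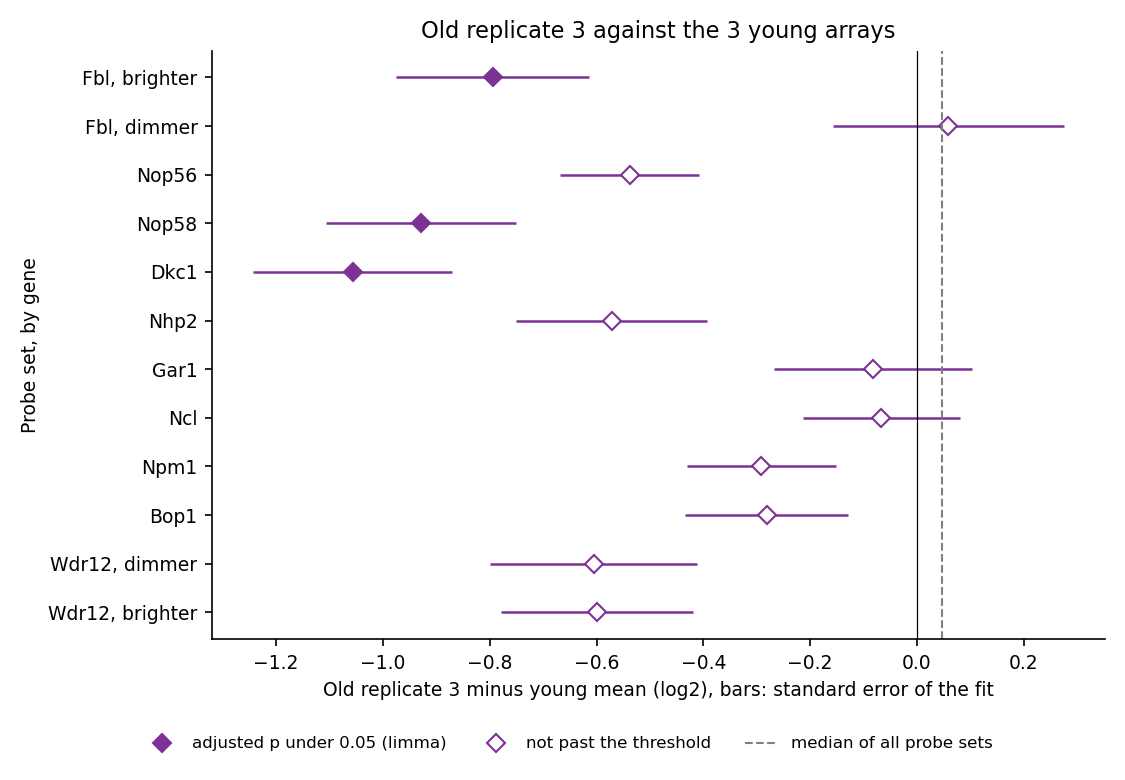
Old replicate 3 minus the mean of the 3 young arrays in log2 units for the 12 probe sets, with the standard error of the limma fit as bars; filled diamonds passed an adjusted p of 0.05. Dkc1, Nop58 and the brighter Fbl probe set are filled, and the dashed line is the median of all probe sets at 0.05.

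**Figure D4:**
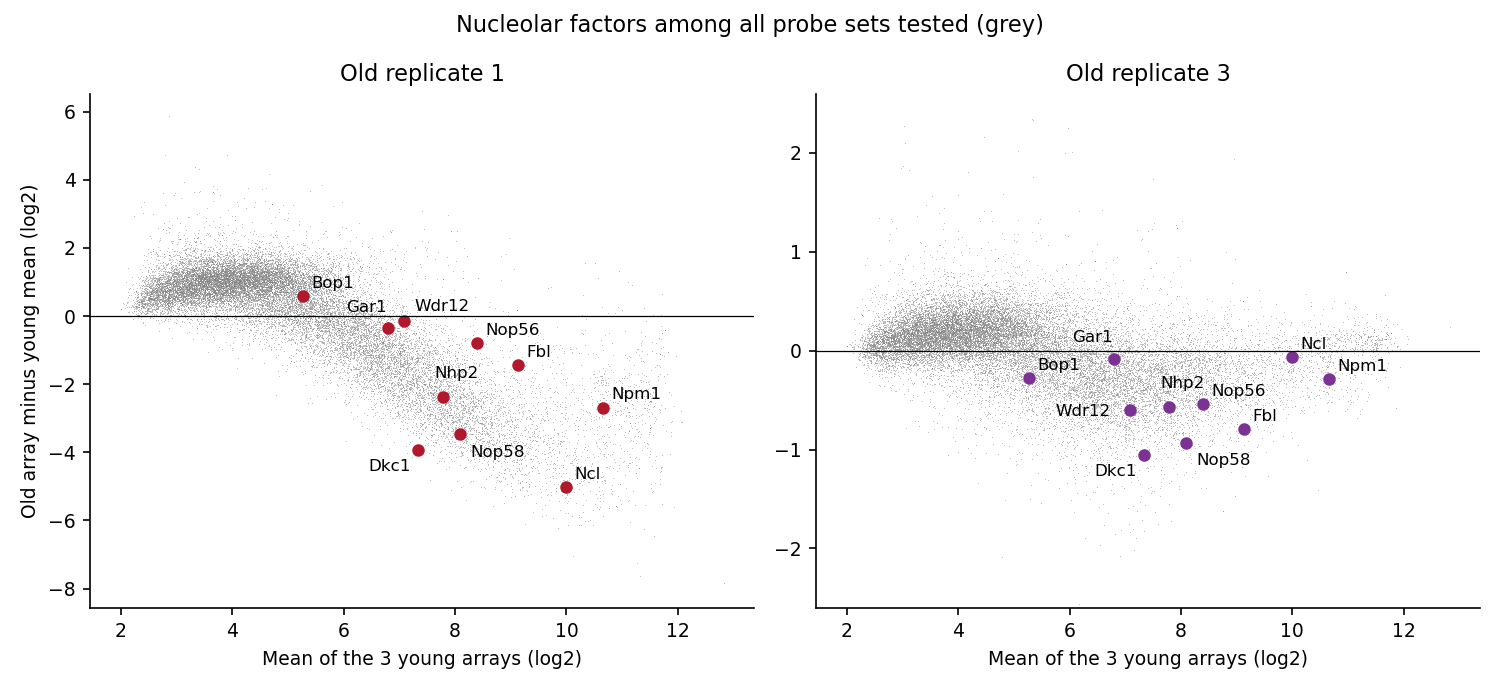
Old replicate 1 (left) and old replicate 3 (right) minus the young mean against the young mean, both in log2 units, for all 23410 probe sets (grey) and the 10 genes by their brighter probe set (coloured). On old replicate 1 the cloud bends down with the young level, with Dkc1 at its lower side and Nop56, Fbl and Npm1 at its upper side, and on old replicate 3 it is flatter, with Dkc1, Nop58 and Fbl at its lower side; the vertical scales differ, and 8 probe sets beyond 2.6 are not drawn on the right.

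Partners of the members were taken from 5 lists of textbook factors, each gene by its brightest probe set. Their counts stand beside 36.7% of all genes with a lower old mean, and beside 5.24% of all probe sets called lower on old replicate 3, or 11.8% of those with a young mean within the range of the members. The shares called lower on old replicate 3 are from before quantile normalization and are not a background for the counts after it. The share of lower old means among probe sets of that range was not taken. Their medians were -1.19, -1.09 and -0.20 on old replicates 1, 2 and 3, so bright probe sets as a whole were lower. After quantile normalization 8518 of all 19938 genes had a lower old mean. Quantile normalization moved the list medians on old replicate 3 from -0.34 to -0.17 for the snoRNA particle partners and from -0.12 to -0.04 for polymerase I. There the small subunit median went from -0.42 to -0.25, the large subunit median from -0.31 to -0.09 and the exosome median from -0.49 to -0.28. Of 15 measured partners and assembly factors of the snoRNA particles, 0 passed over all 6 arrays with limma, 13 had a lower old mean, and the median difference was -0.55. Against the young arrays, 3 of the 15 were called lower on old replicate 3 and 0 higher, and 1 was after quantile normalization. Nop10, the smallest H/ACA protein, was at 6.07, 7.16 and 9.33 on the old and 9.65, 9.71 and 9.65 on the young arrays. Snu13, which binds box C/D RNA first, was at 6.96, 6.39 and 9.27 against 9.79, 9.80 and 9.68, the gene having 4 probe sets. Neither group of values overlapped, and on old replicate 3 Nop10 was -0.34 ± 0.12 (SE) and Snu13 -0.49 ± 0.13 from the young mean, with adjusted p of 0.135 and 0.0635 by limma. Pih1d1, an assembly chaperone, fell by 0.68 ± 0.13 (SE) there (adjusted p = 0.0278 by limma, and 0.0904 after quantile normalization), and Rpap3, of the same chaperone complex, was at -0.75 ± 0.24 (0.0945). Tcof1, a nucleolar factor of ribosomal RNA synthesis, was between 6.34 and 6.54 on all 6 arrays before quantile normalization, which moved its difference from 0.05 to 0.87. Tert, the telomerase reverse transcriptase, was below the receptor level on all of them.

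The polymerase I list had 12 measured genes, of which 0 passed over all arrays with limma and 10 had a lower old mean, with a median difference of -1.23, or -0.79 after quantile normalization. The single call on old replicate 3 was Taf1b, a promoter factor, which fell by 0.75 ± 0.15 (SE; adjusted p = 0.0351 by limma, and 0.115 after quantile normalization). Polr1c and Polr1d, subunits shared with polymerase III, were -0.39 ± 0.13 and -0.29 ± 0.13 there, with adjusted p of 0.105 and 0.188 by limma. Taf1d stood at 5.10, 5.12 and 11.63 in the old group and between 11.32 and 11.52 on the young, with 9 probe sets to the gene, and old replicate 3 was the highest of the 6. The 2 genes of the list with higher old means were Taf1c, at 6.79, 6.36 and 5.62 against 5.51, 5.40 and 5.54, and Polr1b, which was above the receptor level on 2 young arrays alone and turned sign after quantile normalization.

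The small subunit list had 47 measured genes, with 0 called over all arrays with limma, 42 lower old means and a median difference of -1.19. Old replicate 3 had 6 of the 47 called lower, a share near the 11.8% of probe sets in the brightness range of the members, and 0 higher, and 2 lower after quantile normalization. Utp15, part of the complex that joins the nascent precursor first, had the smallest p of the list and was at 3.98, 4.20 and 5.56 on the old and 6.85, 6.79 and 7.17 on the young arrays. It fell by 1.38 ± 0.17 (SE) on old replicate 3 (adjusted p = 0.0108 by limma), and Utp4, of the same complex, fell by 0.83 ± 0.17 (adjusted p = 0.0351). After quantile normalization the adjusted p was 0.0136 for Utp15 and 0.0608 for Utp4, whose call was lost. Utp3 and Fcf1, the brightest of the list, were -0.38 ± 0.12 and -0.53 ± 0.18 there, neither past the threshold. Dhx37, a helicase, lay the other way at 5.77, 6.58 and 5.59 against 5.39, 5.26 and 5.42, with an adjusted p of 0.132 over all arrays by limma, and Rrp9 overlapped between the groups with a sign that turned after quantile normalization.

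The large subunit list had 48 measured genes, with 0 called over all arrays with limma, 43 lower old means and a median difference of -0.97, which became 30 and -0.52 after quantile normalization. Old replicate 3 had 8 of the 48 called lower and 0 higher, and 1 lower after quantile normalization. Sdad1 fell by 0.68 ± 0.14 (SE) there (adjusted p = 0.034 by limma, and 0.0604 after quantile normalization), and Ddx56, a helicase, was at -0.72 ± 0.20 (0.0688). The brightest genes of the list, Nsa2 and Nop53, overlapped between the groups and were 0.11 ± 0.13 and 0.10 ± 0.12 on old replicate 3, their differences over all arrays turning from -1.36 to 0.12 and from -1.09 to 0.43 after quantile normalization. Nle1 and Wdr18 had higher old means, with adjusted p of 0.183 and 0.236 by limma, and both were within the receptor level on old replicates 1 and 2.

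The exosome, which trims the ribosomal RNA precursor, had 13 measured genes, with 0 called over all arrays with limma, 13 lower old means and a median difference of -1.21, which became 12 and -0.78 after quantile normalization. Old replicate 3 had 4 of the 13 called lower and 0 higher, and 2 lower after quantile normalization. Dis3, a catalytic subunit, fell by 0.94 ± 0.16 (SE; adjusted p = 0.021 by limma) and C1d, a cofactor, by 0.69 ± 0.13 (adjusted p = 0.0293). Exosc3, a cap subunit, was -0.05 ± 0.13 and the helicase Mtrex -0.36 ± 0.15 there. The members were not set against these lists in a test.

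**Figure D5:**
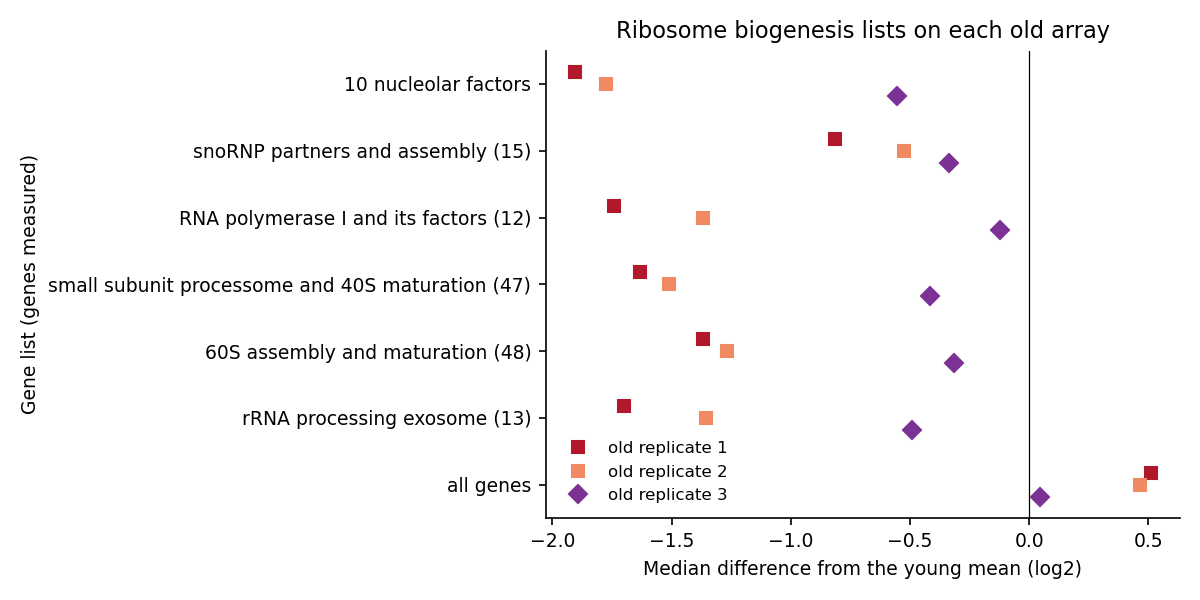
Median difference from the young mean in log2 units on each old array, for the 10 nucleolar factors, 5 lists of other ribosome biogenesis genes with the number measured, and all genes. On old replicate 3 the medians of the 10 factors and the lists lie between -0.55 and -0.12, and that of all genes at 0.04.

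Myc, a known activator of nucleolar genes, was at 5.84, 6.33 and 5.999 on the old and 7.30, 6.96 and 7.95 on the young arrays. All old values lay below all young ones, old replicate 3 lay between the other old arrays, and the value of old replicate 1 was within the receptor level. The Myc difference was -1.35 ± 0.31 (SE) over all arrays (adjusted p = 0.101 by limma), or -0.51 after quantile normalization, and on old replicate 3 it fell by 1.40 ± 0.32 (adjusted p = 0.0468, and 0.075 after quantile normalization). The young arrays spanned about 1 log2 unit for this gene, and young replicate 3 was the highest, as it was for 11 of the 12 member probe sets.

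Some members carry snoRNA genes within them, which are cut from their introns. RefSeq places 6 snoRNA genes inside Nop56, Nop58 and Ncl, of which 3 had a probe set of their own. Snora75, within Ncl, was at 5.96, 8.36 and 5.92 on the old and 7.09, 7.30 and 7.25 on the young arrays. Snord82, also within Ncl, was at 5.04, 6.82 and 6.04 against 6.69, 6.73 and 6.76. Both overlapped between the groups because old replicate 2 was the highest array. On old replicate 3 Snora75 fell by 1.29 ± 0.14 (SE) and Snord82 by 0.69 ± 0.12, with adjusted p of 0.00834 and 0.0257 by limma, whereas their host Ncl was at -0.07 ± 0.15. After quantile normalization the adjusted p was 0.0176 for Snora75 and 0.0686 for Snord82, whose call was lost. The difference between host and snoRNA was not tested. Snord57, within Nop56, was -0.61 ± 0.16 there (adjusted p = 0.0579), beside -0.54 ± 0.13 for its host.

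Outside these lists, the genes with a pattern most like the median member were Ube2c, Ncbp2, Rere, Snx12 and Ercc3. Likeness was the root mean square of the distance over the 3 old arrays, each taken from the young mean, and was 0.04 to 0.06 for these genes. Among the members themselves that distance from their own median ran from 0.30 for Fbl to 1.93 for Ncl.

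Markers of other cells moved with the old arrays as well. All 8 neutrophil markers were above the receptor level on each young array and on the third old array, with 3 and 4 of the 8 above it on the other old arrays. Their summed intensity was 2019, 4759 and 8158 on old replicates 1 to 3 and 7664 to 9710 on the young arrays. S100a8, a neutrophil protein, was between 10.30 and 11.51 and S100a9 between 8.67 and 11.50 on all 6 arrays. The 13 B cell progenitor markers summed to 3117, 4763 and 9022 on the old and 9971 to 10538 on the young arrays. Of the 13, 11 had a lower and 2 a higher old mean. Cd79b was at 6.65, 6.79 and 10.48 on the old arrays, a difference of -2.66 from the young. Vpreb1 went the other way over all arrays, at 11.13, 11.69 and 10.82 on the old and a difference of 0.22. Centring arrays on their medians turned that difference to -0.03. On old replicate 3 alone Cd79b was -0.15 and Vpreb1 -0.17 from the young mean.

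The sums of the 4 erythroid markers were 184 to 308 on the old and 165 to 255 on the young arrays, those of the 5 T cell markers 131 to 214 and 103 to 138, and those of the 6 macrophage markers 112 to 189 and 97 to 119. For 4 plasma cell markers they were 146 to 202 and 170 to 191, for 4 natural killer cell markers 86 to 147 and 90 to 147 and for 4 megakaryocyte markers 104 to 183 and 96 to 97. On old replicates 1 and 2 at most 1 marker of each of these lists was above the receptor level. For macrophages it was 0 on all 3 old arrays, and for T cells 0, 1 and 1 on old replicates 1 to 3. Higher old sums there are therefore not amounts of such cells. None of these deposited values is 0, and the part of such cells in the members' values was not tested. For old replicate 3 the sums of neutrophil, erythroid, T cell and macrophage markers lay within the young range, while those of B cell progenitor and natural killer cell markers lay below it and those of plasma cell and megakaryocyte markers above it. Cd3e, a T cell gene, was at 5.77, 6.49 and 5.56 on the old and 4.68, 4.92 and 5.35 on the young arrays. Cd3d, the other T cell gene named by the rule, differed by -0.13 over all arrays and by 0.007 on old replicate 3. Of the 5 T cell markers 4 had a higher and 1 a lower old mean, and their median on old replicate 3 was 0.04.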

How the data were processed

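Arrays of 3 old and 3 young samples were compared by the age in the labels. The deposited table holds linear probe set intensity. Per the submitters' processing notes RMA, which corrects background and summarises the probes of a set, was used, with no version given in these sources. Log2 of the deposited intensity was taken, and the main fit added no scaling between arrays. The arrays as deposited did not share a distribution. The interquartile range of the log2 values was 1.41, 1.40 and 2.44 on old replicates 1 to 3. It was 2.76 to 2.98 on the young arrays. Of 28940 probe sets, the platform's annotation gives 1 gene to 21789, several to 1621 and none to 5530, and the 23410 with a gene were tested. Symbols were updated through RefSeq gene numbers (GRCm38.p6), and a list gene is given by its probe set with the highest mean.

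Differences were fitted with limma 3.58.1 in R 4.3.3, with moderated variances, a 2-sided test and Benjamini-Hochberg adjustment over all probe sets tested, and called at an adjusted p under 0.05. Tables used pandas 2.3.3 and numpy 2.4.6 under Python 3.11.15, and matplotlib 3.10.9 drew figures. The code was tested on artificial data with known answers. The members, lists, tests and alternatives were chosen with earlier results of these data known. Partner genes were named by a rule: in each list the 2 with the smallest p in each direction and the 2 brightest, with Pes1, Nop10, Snu13 and Myc, 2 markers a cell type and the 5 genes most like the members. Not every marker so named is printed. Alternatives were the replicate block, a filter on dim probe sets (mean under the 30th percentile, 4.32 on the log2 scale), all 28940 probe sets, centring, quantile normalization, trended robust moderation, array weights, a pseudocount of 16, the mean of a gene's probe sets, an adjusted p under 0.1 and leaving out each array. Protein features were planned and not analysed here.

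The titles give both groups replicate numbers 1 to 3. Arrays of the same number deviated together from their group means, at r of 0.157, 0.150 and 0.279 over probe sets, all above the limit of 0.1 for treating the numbers as a pairing. Unequal numbers passed that limit as well, with r of 0.153 (old 1, young 2) and 0.141 (old 2, young 1). The check therefore cannot tell whether numbers 1 and 2 are paired. Deviations from a group mean depend on each other, so the 0.279 of number 3 is no separate evidence. No pairing is concluded from these values. The number of arrays limits the precision.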

Additional observations from a re-analysis of the deposited data

How the results depend on the processing

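With the replicate number as a block, 0 member probe sets and 0 of all were called (smallest adjusted p = 0.081 with limma), the member median stayed at -1.46, and the block changed no other call. The counts of 0 rose to 19998 of all and 9 of the members with estimated array weights, whose fit did not reach full convergence, and over single left-out arrays they ran from 0 to 19285 and from 0 to 8, the highest without old replicate 3. The other alternatives over all arrays called 0. The member median was -0.044 after quantile normalization and ran from -1.92 (without old replicate 3) to -1.16 with an array left out.

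Quantile normalization turned Fbl to 0.19, Nop56 to 0.65, Gar1 to 0.78 and Wdr12 to 0.42. Bop1 turned from 0.05 to -0.20 after centring and -0.032 with array weights, and ran from -0.21 to 0.22 with an array left out. The cause was not tested. For old replicate 3 against the young arrays, the 3 member calls became 1 with quantile normalization, 1 with a pseudocount of 16 and 7 at an adjusted p under 0.1, and ran from 0 (without young replicate 1) to 7 (without young replicate 3). All probe sets called there numbered 1638, against 955 with quantile normalization, 928 with the pseudocount, 2442 after centring, 189 without young replicate 1, 927 without young replicate 2 and 3920 without young replicate 3. The lower share of these calls, 74.9%, was 88.9% after centring, 60% with quantile normalization, 61.6% over all 28940 probe sets and 64.1% without young replicate 3. With the pseudocount the member called on old replicate 3 was Nop56, in place of Dkc1, Nop58 and Fbl. Signal near background on old replicates 1 and 2 limits the size of differences there to bounds.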
